A study of Mus musculus with 12 samples.

Results

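The 9 major urinary protein genes Mup3, Mup7, Mup9, Mup10, Mup11, Mup14, Mup17, Mup20 and Mup21 were followed one by one in the liver of female mice aged 15 weeks that over-expressed the microRNA gene Mir483. They were chosen by name and make up 9 of the 55401 genes in the count table and 9 of the 49 annotated genes whose symbol begins with Mup. The iTgMir483 group comprised 6 mice with an inducible Tet-off transgene for Mir483 at the Rosa26 locus, and the Control group comprised 6 littermates, on a C57BL/6J background. The iTgMir483 allele arises once a Neo cassette has been removed by CMV-Cre, which is active in all tissues, so it is not specific to the liver. Doxycycline switched the transgene off during pregnancy and was then withdrawn, so Mir483 was expressed from birth. The labels of both groups name the same cross, and whether the controls carried Cre or the uncut transgene is not given in the sources used here. Each library came from the liver of 1 mouse.

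Major urinary proteins are small lipocalins, barrel-shaped carriers that hepatocytes secrete into the blood and the kidney passes into urine. There they bind volatile pheromones and release them slowly, and some act as signals themselves. Their genes lie in a cluster in which a central block of near-identical copies is flanked by more divergent genes. Their transcription in liver is higher in males than in females and depends on the pattern of growth hormone release, as well as on glucocorticoid and thyroid hormone.

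The 9 genes lie on the minus strand of chromosome 4 (GRCm38) and overlap no other annotated gene. Mup7 (60066469 to 60070475), Mup9 (60418046 to 60421952), Mup10 (60578260 to 60582199), Mup11 (60658466 to 60662411), Mup14 (61300023 to 61304000) and Mup17 (61591929 to 61595871) come first. Mup20 (62050234 to 62054158), Mup3 (62083476 to 62087342) and Mup21 (62147932 to 62150863) lie next to each other at the other end. The first 6 were 98.35% to 99.63% identical to each other over their coding sequence, and 82.86% to 91.39% identical to the remaining 3. Mup3 and Mup21 were 94.77% identical. Mup20, which encodes darcin, a male pheromone that attracts females, was nearest to Mup11 at 91.39%.

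Because paralogs share reads, each annotated transcript was cut into windows of 50 bases, the read length of the study, and the windows found in no other annotated gene were counted. They made up 84.39% of the windows of Mup3, 80.73% of Mup21 and 49.49% of Mup20. For Mup17, Mup10, Mup11, Mup9, Mup7 and Mup14 the share was 21.87%, 13.78%, 11.01%, 7.85%, 3.65% and 2.40%. Most single reads of 50 bases from these 6 could therefore also match another copy, and the split of counts among them is uncertain. Reads were paired, and the windows take no account of the second read, so they may overstate the sharing. Mup3 and Mup21 rest largely on sequence of their own.

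**Figure D1:**
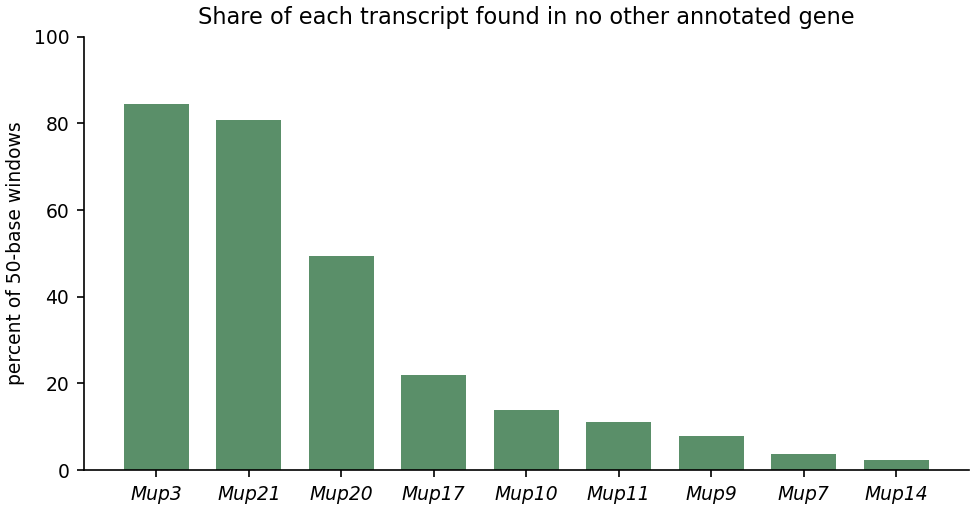
Percent of the 50-base windows of each transcript that occur in no other annotated gene, with 1 bar for each of the 9 genes. The shares fall from 84.39% for Mup3 to 2.40% for Mup14.

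Both mature products of Mir483 are shown because their seeds define the sites that were searched in the Mup transcripts. The sequences are those of RefSeq on GRCm38.p6, and the seed (bases 2 to 8) is in capitals.
mmu-miR-483-3p: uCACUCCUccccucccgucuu
mmu-miR-483-5p: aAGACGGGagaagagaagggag
The match to the first seed, AGGAGTG, occurred in the annotated 3′ UTR of 10.64% of 20973 genes and that to the second, CCCGTCT, in 2.66%. Neither occurred in the annotated 3′ UTR of any of the 9 genes, which were 271 to 399 bases long in 8 of them and 20 bases long in Mup21.

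The upstream sequence is shown for 5 genes, because it sets Mup3 and Mup21 apart from the near-identical copies, as their coding sequence does. RefSeq (GRCm38.p6) gave a promoter entry for 8 of the 9 genes, of 300 bases around the annotated start. Each window shown ends with the motif TATATAAG, in capitals.
Mup3 (chr4:62087321-62087428, minus strand): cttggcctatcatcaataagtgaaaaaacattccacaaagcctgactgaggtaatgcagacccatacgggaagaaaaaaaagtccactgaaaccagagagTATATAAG
Mup21 (chr4:62150842-62150949, minus strand): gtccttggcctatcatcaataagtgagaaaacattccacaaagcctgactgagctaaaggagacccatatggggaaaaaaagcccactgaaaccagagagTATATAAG
Mup9 (chr4:60421976-60422083, minus strand): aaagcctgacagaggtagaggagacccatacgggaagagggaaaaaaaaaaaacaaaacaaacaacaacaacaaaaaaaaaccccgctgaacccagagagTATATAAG
Mup10 (chr4:60582178-60582285, minus strand): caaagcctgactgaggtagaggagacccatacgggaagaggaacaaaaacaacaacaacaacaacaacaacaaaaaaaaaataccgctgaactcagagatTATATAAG
Mup17 (chr4:61595850-61595957, minus strand): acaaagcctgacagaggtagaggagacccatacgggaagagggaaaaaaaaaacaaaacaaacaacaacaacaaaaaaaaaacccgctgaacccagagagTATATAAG
Mup3 and Mup21 were 89.19% identical over these 108 bases, and Mup9 and Mup17 were 95.45% identical. Mup9, Mup10 and Mup17 carry a long run of adenines broken by single cytosines that Mup3 and Mup21 lack. Aligned end to end, the windows of Mup3 and Mup9 were 44.44% identical. Because the windows have equal length and end at the motif, the run shifts the bases upstream of it. Much of the stretch upstream of the run in Mup9 is also found in Mup3, so 44.44% understates their likeness. The motif TATATAAG on the sense strand was chosen after these promoters were read. It shares no full copy of TATAAA and was present in 7 of the 8 entries, all but that of Mup7, and in 0.703% of 32851 promoters. TTCNNNGAA, the motif bound by STAT5, and TGTTTAC, both searched on either strand, and TATAAA on the sense strand were present in 8.30%, 3.65% and 8.32% of promoters. They had 0 matches in the 8 entries, which says only that these letters are not in these windows.

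Libraries held 12244123 to 30431286 counts in controls and 12415140 to 15846175 in iTgMir483 livers. Mir483 had 0 counts in each control library and 318 to 761 in the iTgMir483 libraries, as the labels state. Against 2.73% lower and 8.41% higher among the 13205 genes tested, 1 of 11 hepatocyte markers was higher and 0 were lower in iTgMir483 livers. Their summed level was 141363 to 188377 counts per 1000000 counts (CPM, scaled by TMM library sizes) in controls and 92805 to 165073 CPM in iTgMir483 livers, lowest in iTgMir483 replicate 1. Salivary and lacrimal glands also make urinary proteins. Of 7 markers of these glands, 6 were at 0 in each library. The library numbered 1 stood apart in both groups. Control replicate 1 had the highest Mup3, Mup7, Mup11, Mup20 and Mup21 of the controls, and iTgMir483 replicate 1 had the highest level of each of the 9 genes among iTgMir483 livers. Values without these libraries are therefore given below. Fewer cells of a type and less RNA per cell cannot be told apart in whole liver.

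The question for each gene was whether its transcript differed between iTgMir483 and Control livers. By edgeR's quasi-likelihood test, 7 of the 9 genes were lower in iTgMir483 livers and 0 were higher, against 2.73% lower and 8.41% higher among the 13205 genes tested. In the same 7 genes, the level of each iTgMir483 liver was below that of each control, which held for 2.83% of genes (the reverse held for 5.09%). For 6 of them the count describes the filter as much as the genes: they reached the filter level of 0.644 CPM in the 6 controls and in at most 1 iTgMir483 liver, so their direction was set once they had passed it. The median log2 fold change of the 9 was -4.23, against 0.006 for the genes tested.

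Mup3 had the highest CPM of the 9 genes in each liver. Controls had 876.7, 1507.2 and 4505.2 CPM (lowest, median and highest), and iTgMir483 livers had 39.8, 86.3 and 393.8 CPM. The highest value in each group was that of replicate 1, and the groups did not overlap. Mup3 fell from 1953.3 ± 1306.6 CPM (SD, n = 6) to 127.5 ± 131.7 CPM (SD, n = 6), or 15.3-fold (log2 fold change -3.94, SE 0.573, edgeR adjusted p 0.000722). The two-sided exact permutation p was 0.0022, the smallest that 6 against 6 livers allow. Without iTgMir483 replicate 1 the log2 fold change was -4.72 (SE 0.428), and without both libraries numbered 1 it was -4.28 (SE 0.271). This is the fall that rests on the most reads, with 204836 counts in controls and 10900 in iTgMir483 livers.

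Mup20 did not pass the test with the 12 libraries. It had 11.7, 24.85 and 437.3 CPM in controls (lowest, median and highest) and 5.06, 9.72 and 80.1 CPM in iTgMir483 livers. Replicate 1 held the highest value in both groups, at 19.0 and 9.23 times the mean of the other 5 livers. The lowest control was above 4 of the 6 iTgMir483 livers. Fitted over the 12 libraries, its log2 fold change of -2.16 (SE 0.962) had an edgeR adjusted p of 0.132 and an exact permutation p of 0.1255. Its value turned on these libraries. It was -0.17 (adjusted p 0.876) without Control replicate 1, -3.40 (adjusted p 0.0212) without iTgMir483 replicate 1, where 3.13% of genes were lower and 9.26% higher, and -1.40 (SE 0.299, adjusted p 0.00641) without both.

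Mup21 was the gene whose direction depended on a single liver. Controls had 2.42, 3.35 and 22.3 CPM (lowest, median and highest), and iTgMir483 livers had 3.45, 6.27 and 7.13 CPM. Control replicate 1 lay above the iTgMir483 livers, and the other 5 controls, at 2.42 to 4.21 CPM, overlapped only with the lowest of them. Its log2 fold change with the 12 libraries, -0.13 (SE 0.495), had an adjusted p of 0.882. Without Control replicate 1 it was 0.86 (SE 0.210, adjusted p 0.0127), in a fit with 3.2% of genes lower and 8.94% higher. Without both libraries numbered 1 it was 0.80 (SE 0.218, adjusted p 0.0212), so that Mup21 then passed as higher in iTgMir483 livers. In that last fit, the 8 other genes passed as lower, against 3.39% lower and 9.44% higher among the genes tested. For the 6 near-identical genes this count again describes the filter as much as the genes, because they passed it through controls.

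**Figure D2:**
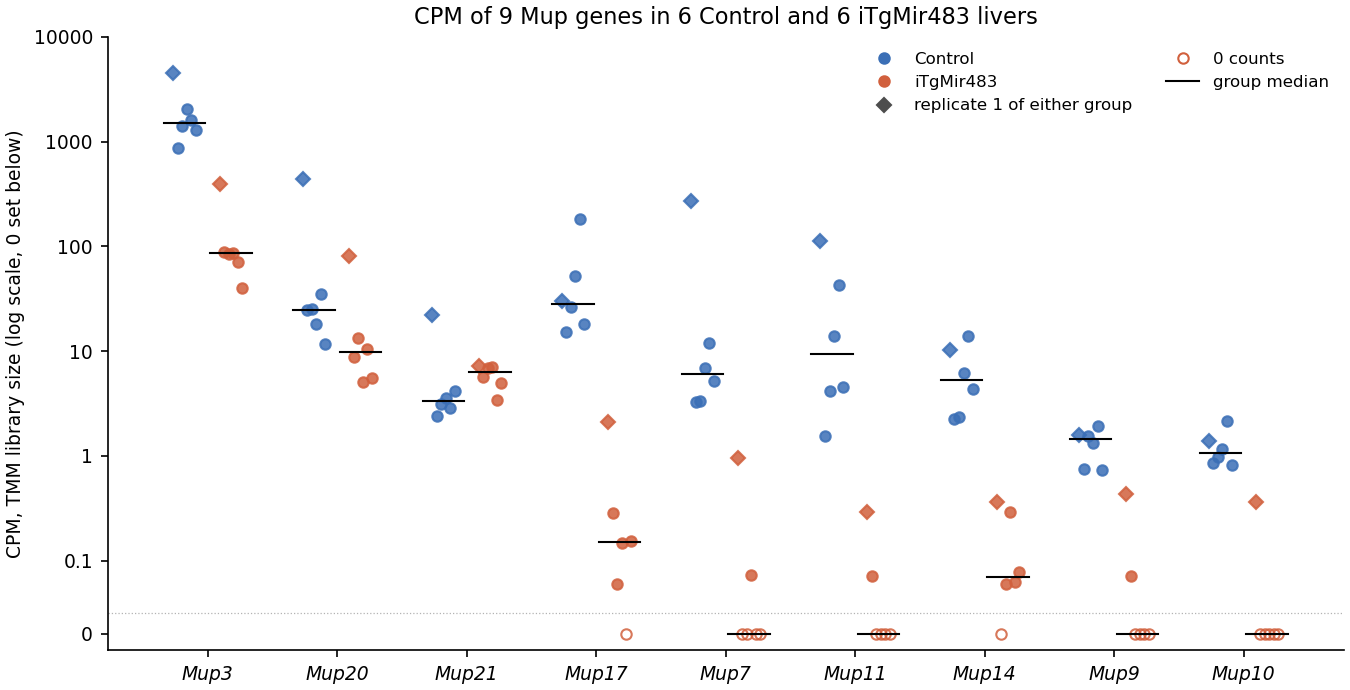
CPM of each gene in each liver on a log axis, with Control in blue, iTgMir483 in orange, diamonds for replicate 1, open circles for 0 counts and lines for group medians. The groups are apart for Mup3 and the 6 near-identical genes and overlap for Mup20 and Mup21, where replicate 1 reaches 437.3 and 22.3 CPM in controls.

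The 6 near-identical genes were close to absent from iTgMir483 livers. Their counts together were 6817, 417, 554, 2384, 3834 and 372 in Control replicates 1 to 6, and 62, 6, 2, 7, 1 and 3 in iTgMir483 replicates 1 to 6. Summed over the 6, the level was 143.8 ± 164.1 CPM (SD, n = 6) in controls and 0.978 ± 1.74 CPM (SD, n = 6) in iTgMir483 livers. This sum does not depend on how the counted reads were split among the 6 genes. Whether reads shared among them, or with further copies, were counted at all is not known. Of the 81 counts in iTgMir483 livers, 62 came from replicate 1.

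Mup17 had the highest mean level per length of these 6 in controls. It had 15.3, 28.1 and 183.6 CPM in controls (lowest, median and highest) and 0, 0.151 and 2.11 CPM in iTgMir483 livers. The highest control was replicate 5, not replicate 1, which ranked 3 of 6. Its log2 fold change of -6.91 (SE 0.888) had an edgeR adjusted p of 0.000346, and moved to -5.98 when Control replicate 5 was left out and to -8.69 when iTgMir483 replicate 1 was left out.

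Mup7 varied most among controls. Its lowest, median and highest values were 3.28, 6.09 and 272.6 CPM, and replicate 1 was 44.5 times the mean of the other 5. In iTgMir483 livers it had 13 counts in replicate 1, 1 in replicate 4 and 0 in the remaining 4. It fell by 8.22 (log2, SE 1.67, adjusted p 0.00470), and the change was -5.18 (SE 0.728, adjusted p 0.000699) without Control replicate 1. Without iTgMir483 replicate 1 it was -11.20, a fitted value that rests on 1 count in that group.

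Mup11 had the largest fitted fall. Controls had 1.55, 9.33 and 111.8 CPM (lowest, median and highest), with 27 to 1782 counts. The iTgMir483 livers had 5 counts in all, 4 of them in replicate 1. Its change of -8.84 (log2, SE 1.43) had an adjusted p of 0.00137, and moved to -7.69 without Control replicate 1. It was -10.45 when iTgMir483 replicate 1 was left out, where the single remaining count leaves its size uncertain.

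Mup14, Mup9 and Mup10 varied less between controls than the other 3 near-identical genes. Mup14 had 2.24, 5.29 and 14.1 CPM in controls (lowest, median and highest) and 0 to 5 counts in an iTgMir483 liver, and its log2 fold change was -5.50 (SE 0.650) at an adjusted p of 0.000189. Mup9 had 8 to 39 counts in a control, and 6 counts in iTgMir483 replicate 1, 1 in replicate 2 and 0 in the remaining 4. Mup10 had 9 to 34 counts in a control, and 5 counts in iTgMir483 replicate 1 and 0 in the remaining 5. Mup9 and Mup10 had the lowest mean CPM of the 9 genes in controls. The highest control was 2.66 times the lowest for Mup9 and 2.60 times for Mup10. Their log2 fold changes were -3.90 (SE 0.649, adjusted p 0.00157) and -4.23 (SE 0.674, adjusted p 0.00123). The value for Mup9 was -5.95 without iTgMir483 replicate 1, where the 1 remaining count leaves its size uncertain. For Mup10 that library holds the group's counts, so no fold is given without it.

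**Figure D3:**
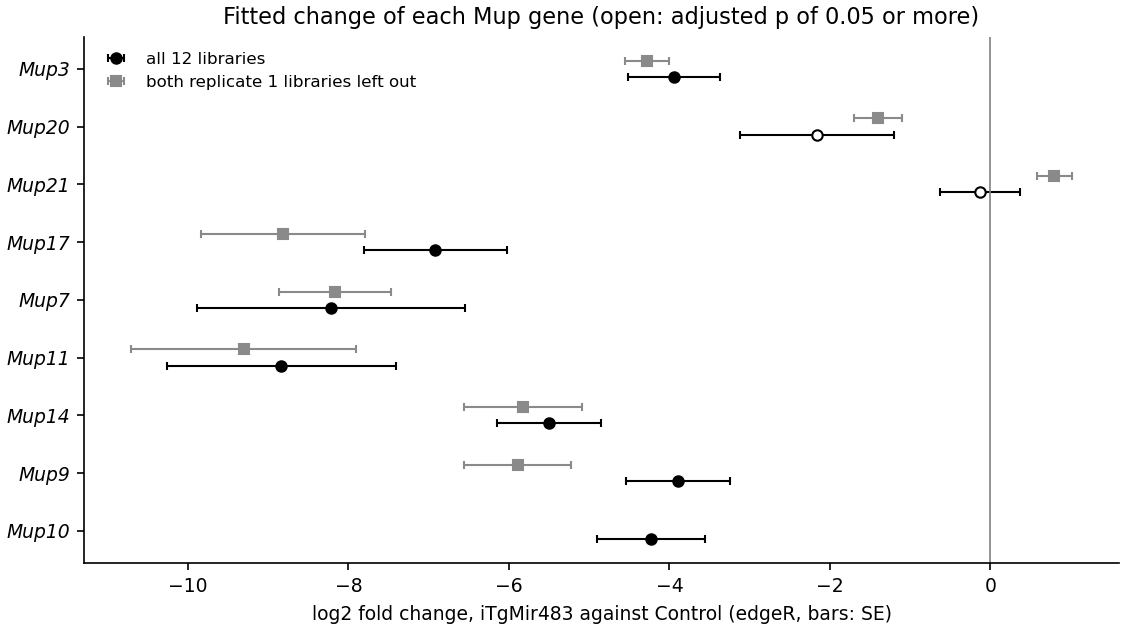
Fitted log2 fold change of each gene with its SE as bars, with the 12 libraries (black circles) and without both libraries numbered 1 (grey squares, not drawn for Mup10, whose iTgMir483 livers then have 0 counts). Open symbols did not reach an adjusted p under 0.05: Mup20 at -2.16 and Mup21 at -0.13 with the 12 libraries. The grey squares of Mup7, Mup9 and Mup11 rest on 1 count each in the iTgMir483 group, so their size is uncertain.

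The fall was then divided among the genes. The 9 genes summed to 2195.5 ± 1622.9 CPM (SD, n = 6) in controls and 154.9 ± 163.3 CPM (SD, n = 6) in iTgMir483 livers, a fall of 2040.6 CPM. They took 0.0904% to 0.541% of the counts of a control library and 0.00517% to 0.0537% of those of an iTgMir483 library. As counted, Mup3 carried 89.47% of the fall. Taken for each control liver against the iTgMir483 mean, its share was 83.58% to 98.1%. Mup20 carried 3.50%, Mup17 2.63%, Mup7 2.47%, Mup11 1.46% and Mup14 0.317%, while Mup9, Mup10 and Mup21 carried 0.0600%, 0.0570% and 0.0268%. How reads shared between copies were counted is not known. If they were left out, the shares of the near-identical genes are too low and that of Mup3 is too high.

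The order behind Mup3 rested on single livers. Without Control replicate 1 the share of Mup20 was 0.173% and that of Mup7 0.426%, while Mup17 carried 4.18% and Mup3 93.88%. Without Control replicate 5 the share of Mup17 was 1.33%. The share of Mup21 turned negative without Control replicate 1, at -0.187%. With the fall of every annotated Mup gene as the denominator, Mup3 carried 84.17%.

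Levels were also divided by the length of annotated exon, which takes no account of sequence shared between copies. Levels of Mup3 and the near-identical genes are therefore comparable only as counted. Controls had 1828.9 ± 1223.4 RPKM of Mup3 (SD, n = 6). Mup20 followed at 99.2 ± 182.5, then Mup17 at 58.45 ± 69.8, Mup7 at 48.9 ± 105.4 and Mup11 at 19.0 ± 27.3 RPKM. Mup21 had 9.47 ± 11.5, Mup14 4.78 ± 3.42, Mup10 0.880 ± 0.356 and Mup9 0.874 ± 0.322 RPKM. Within livers, Mup3 was above Mup20 in 6 of 6 controls and Mup14 above Mup10 in 6 of 6. The neighbours between them were not separated in this way: Mup20 was above Mup17 in 2 of 6 controls, Mup17 above Mup7 in 5, Mup7 above Mup11 in 4, Mup11 above Mup21 in 3 and Mup21 above Mup14 in 5. Mup10 was above Mup9 in 3 of 6.

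Whether the genes fell by the same factor was examined by the log2 ratio of each gene's count to that of Mup3 in the same liver, with 0.5 added to both, a comparison chosen after the values were seen. It uses no library scaling factor, but where a gene has 0 counts its value moves with sequencing depth. Relative to Mup3, the difference between iTgMir483 and Control livers was -3.31 for Mup17 on the log2 scale (two-sided exact permutation p 0.0022, 0.00577 adjusted over 8 ratios), and -3.40 for Mup11 (exact permutation p 0.0022, adjusted 0.00577). In both, the 6 iTgMir483 livers lay below the controls. For Mup7 the difference was -3.03 (exact permutation p 0.00433, adjusted 0.00693), with 5 of 6 livers below the controls. Mup20 rose against Mup3 by 2.57 (exact permutation p 0.00433, adjusted 0.00693), with 5 of 6 livers above the controls. Mup21 rose against it by 4.52 (exact permutation p 0.0022, adjusted 0.00577), with 6 of 6 above. The differences for Mup14 (-1.20, exact permutation p 0.0606), Mup10 (-0.37, exact permutation p 0.379) and Mup9 (-0.15, exact permutation p 0.723) did not pass. In the 6 near-identical genes most iTgMir483 livers had 0 to 5 counts, so the added 0.5 is a large part of their ratios. The mean ratio in iTgMir483 livers was -10.36 for Mup7, -10.54 for Mup9, -10.84 for Mup10 and -10.63 for Mup11. How far these genes differ between groups therefore largely follows their level in controls. Mup7, Mup11 and Mup17 also passed the filter through controls, with at most 1 iTgMir483 liver at its level. Their differences depend on the added 0.5, and their exact permutation p are descriptive only. For Mup14, Mup10 and Mup9 a further fall could not have been resolved at this depth.

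Without both libraries numbered 1, the ratios of Mup20 and Mup21 differed by 2.88 and 5.05, each with the exact permutation p of 0.0079 that is the smallest 5 against 5 livers allow. Mup7 and Mup11 then had 1 count each in the iTgMir483 group, and no difference is given for them. The make-up of the summed signal shows the same contrast. Mup21 was 0.152% to 0.413% of the 9 genes in controls and 1.47% to 9.82% in iTgMir483 livers. Mup20 was 0.857% to 8.11% in controls and 5.06% to 16.5% in iTgMir483 livers, and Mup17 was 0.556% to 9.67% and 0% to 0.435%.

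**Figure D4:**
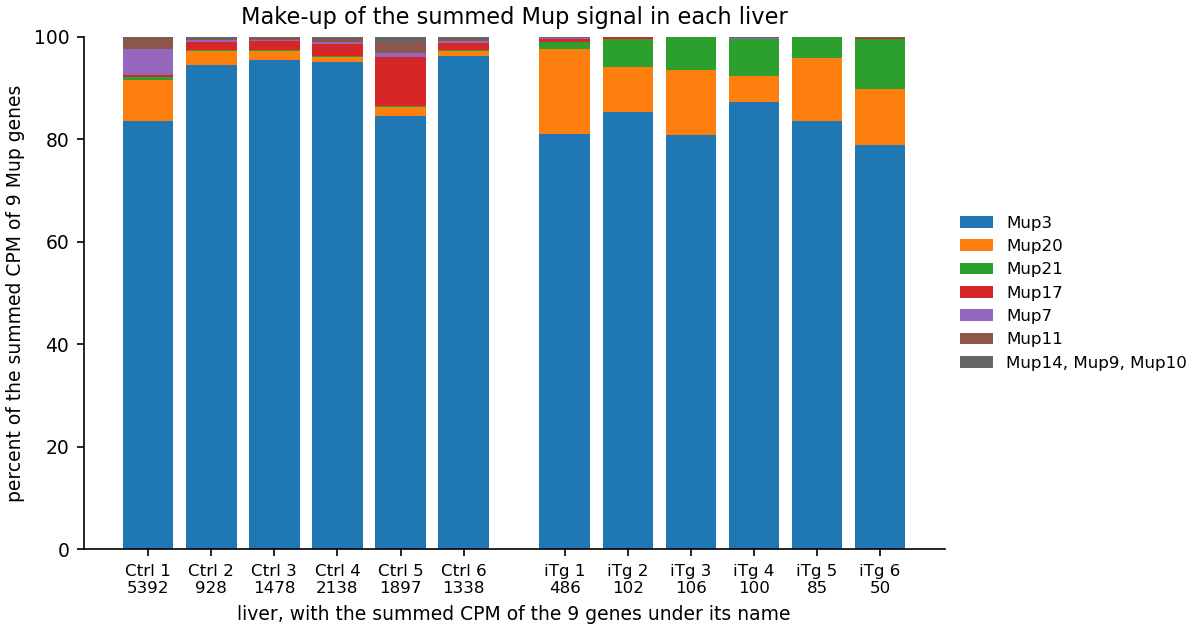
Percent of the summed CPM of the 9 genes that each gene took in each liver, as stacked bars, with the summed CPM under each liver's name. Mup3 takes 78.8% to 96.3% of each bar, and Mup21 (green) takes 1.47% to 9.82% in iTgMir483 livers against at most 0.413% in controls.

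Other genes of the cluster and of the pathways that act on it were counted in the same fit, where 2.73% of the genes tested were lower and 8.41% higher, with a median log2 fold change of 0.006. Of the 40 other Mup-named genes, 7 passed the filter and 6 of these were lower (median -4.15). For 5 of the 7, the filter level was reached in the 6 controls and in 1 iTgMir483 liver, so their direction was set once they had passed it. The 3 most abundant were Mup22 (-4.15, SE 0.881, adjusted p 0.00587), Mup18 (-6.52, SE 0.782, adjusted p 0.000210) and Mup15 (-6.70, SE 0.807, adjusted p 0.000210). Without iTgMir483 replicate 1 these values were -7.69, -8.12 and -7.97. Of 25 annotated protein-coding genes within 1000000 bases of the 9 that are not Mup genes, 18 were tested. Only Zfp618 was called (log2 fold change 1.57, adjusted p 0.0113), as higher, and the median was 0.01. Ambp, the nearest lipocalin outside the family and the precursor of alpha-1-microglobulin, had 1679 ± 193 CPM in controls and 2040 ± 669 CPM in iTgMir483 livers (SD, n = 6, adjusted p 0.306).

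Among 9 tested genes of the growth hormone and STAT5 pathway, 2 were lower and 2 higher (median 0.10). The targets Igf1 (log2 fold change -1.51, SE 0.198, adjusted p 0.000371) and Igfals, which encodes a carrier of circulating IGF1 (-0.81, SE 0.191, adjusted p 0.00985), fell. The paper reports Igf1 as a direct target of Mir483, and raised growth hormone in the blood of adult iTgMir483 mice. The fall of Igf1 is therefore not a readout of this pathway alone, and the part of each was not tested. Cish, a feedback inhibitor of the pathway, rose (1.07, SE 0.305, adjusted p 0.0253), but not without Control replicate 4, Control replicate 6 or iTgMir483 replicate 6, where its adjusted p was at most 0.0545. Ghr, the receptor, had 319 ± 58.2 CPM in controls and 289 ± 64.6 CPM in iTgMir483 livers (SD, n = 6, adjusted p 0.564), and Stat5b had an adjusted p of 0.234.

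Of 18 liver transcription factors and nuclear receptors tested, 2 were lower and 0 higher (median -0.19). Nr1i3, the xenobiotic sensor CAR, fell by 1.27 (SE 0.173, adjusted p 0.000478).

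Of 20 listed genes with higher expression in male liver, 14 were tested, and 7 were lower and 0 higher in iTgMir483 livers (median -1.65), against 2.73% and 8.41% of all genes tested. The 3 with the smallest p were Slco1a1, an organic anion transporter (-6.23, SE 1.10, adjusted p 0.00228), Elovl3, a fatty acid elongase (-2.96, SE 0.529, adjusted p 0.00242), and Cyp7b1, an oxysterol hydroxylase (-2.29, SE 0.448, adjusted p 0.00390). Without Control replicate 1, 6 were lower and 1 higher, against 3.2% and 8.94% of all genes in that fit, and the median was -0.85. The values of Elovl3 and Slco1a1 were then -2.33 and -5.01. That of Slco1a1 was -8.03 without iTgMir483 replicate 3. Slco1a1 and Selenbp2, another of the lower genes, reached the filter level in 6 controls and 1 iTgMir483 liver. Their direction was therefore set once they had passed it. Cyp2d9, also among the lower genes, was called in 5 of the 12 fits that left out 1 library.

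Among 9 tested lipocalins outside the family, 3 were higher and 1 lower (median 1.03). Lcn2, an iron-siderophore carrier, rose (log2 fold change 3.87, SE 0.896, adjusted p 0.00916), as did the acute-phase gene Orm2 (5.16, SE 1.31, adjusted p 0.0146). iTgMir483 replicate 4 held the highest values, with 694.3 CPM of Lcn2 and 2020 CPM of Orm2, while the lowest iTgMir483 value was within the range of the controls for Lcn2 (7.45 to 22.1 CPM) and below it for Orm2 (6.63 to 30.7 CPM). Without replicate 4 the changes were 2.34 (SE 0.571, adjusted p 0.0140) and 3.51 (SE 1.04, adjusted p 0.0345). Rbp4, the carrier of retinol in blood, fell (-0.64, SE 0.162, adjusted p 0.0141), and was under the fold threshold without Control replicate 6 (-0.54).

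Markers of other liver cells moved as well. Of 8 macrophage markers, 7 were higher and 0 lower (median 1.06), and their summed level was 287.8 to 414 CPM in controls and 436.5 to 1255 CPM in iTgMir483 livers. Csf1r, Cd68 and Clec4f had the smallest p (log2 fold changes 1.09, 0.71 and 0.72), and Cd68 was under the fold threshold without iTgMir483 replicate 4 (0.55). Of 5 bile duct markers, 3 were higher, namely Spp1, Krt7 and Epcam (median of the 5 1.31), and their sum was 20.9 to 46.1 CPM in controls and 60.7 to 89.1 CPM in iTgMir483 livers. The stellate, endothelial and blood lists, with 6, 5 and 5 genes tested, had medians of 0.26, -0.11 and 0.48 and no called gene, and 1 stellate and 1 blood gene were called as higher without Control replicate 1. The part of these markers in the fall of the Mup genes was not tested.

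**Figure D5:**
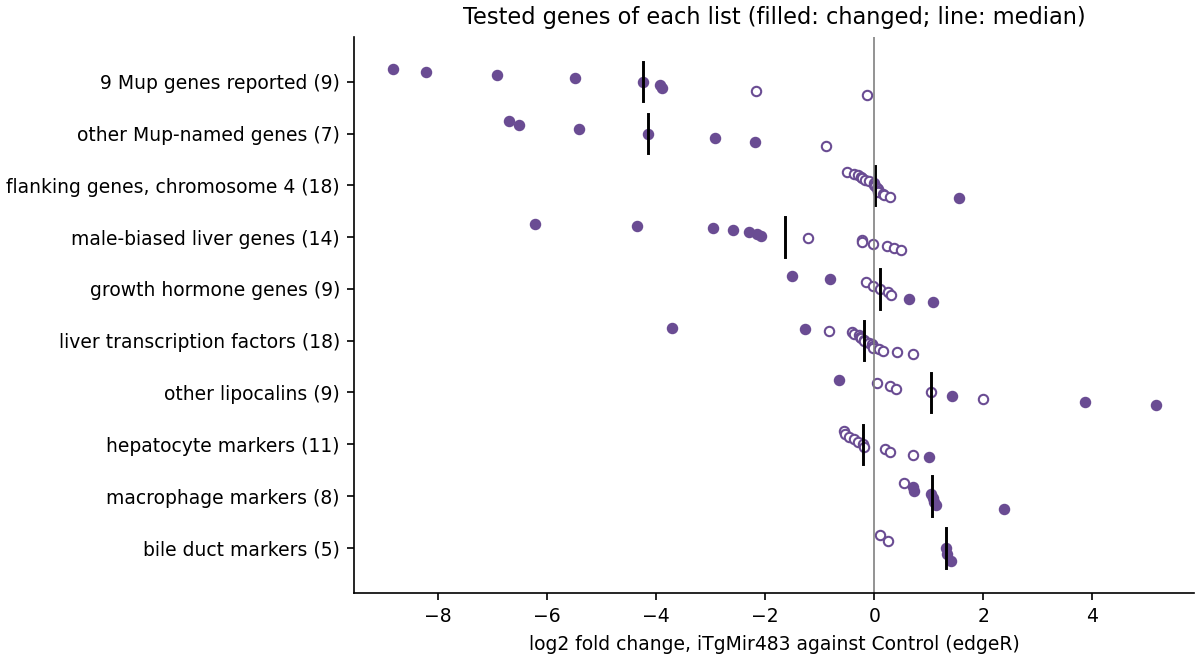
Log2 fold change of each tested gene (points, filled where the gene was called as changed) and the median (line) for the 9 genes and the lists compared with them. The Mup rows have medians of -4.23 and -4.15, the flanking genes 0.01 and the male-biased genes -1.65.

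The genes with a pattern most like that of the 9 were sought among 13182 other genes over the 12 libraries, with the log2 CPM centred within each group so that the group difference did not enter. Insig1, a sensor of sterols, had the highest Pearson r with the mean of the 9 (0.936, Spearman rho 0.734), followed by Sox6 (0.922), Mtmr14 (0.921), Nox4 (0.913) and Nr2c2 (0.909). The libraries numbered 1 were the 2 farthest from the median of the profile, and without them r was 0.744, 0.847, 0.783, 0.694 and 0.675. None of these 5 passed the test between groups, and their adjusted p were 0.229, 0.813, 0.549, 0.519 and 0.150.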

How the data were processed

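RNA was measured in 12 livers by stranded mRNA sequencing with paired reads. The authors used STAR with GRCm38 and deposited raw counts per gene for 55401 genes. Each row named a gene, and each column a sample. How reads shared by paralogs were counted, and which strand setting was used, is not given in the sources used here. Symbols, positions and transcripts came from GENCODE M21 (GRCm38), another release than the authors' annotation.

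Genes were kept by filterByExpr (13205) and scaled by TMM, and edgeR's quasi-likelihood F-test compared the groups, with no covariates (edgeR 4.0.16 with limma 3.58.1 in R 4.3.3). Called genes had a fold change above 1.5 and a p adjusted by Benjamini-Hochberg below 0.05. The SE is the fold change on the log2 scale divided by the square root of F. The fit was tested on simulated data. Exact permutation tests used the 924 assignments of 12 livers. The libraries are biological replicates of separate mice, and libraries of a group differed by a chi-square of at least 14.3 per gene, so each counted once. Figures are from matplotlib 3.10.9.

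The members and lists were chosen with earlier results of these data known. The text names, by rule, the 9 genes, the 3 most abundant other Mup genes, the 3 changed genes with the smallest p in each list, 5 genes most alike in pattern, Mir483 and Igf1. A gene that meets this rule is not reported here. Ambp, Ghr, Stat5b, Selenbp2 and Cyp2d9 were added after their values were seen. Alternatives were RLE factors, library sizes without Mup genes, other filters, DESeq2 1.42.0, limma-voom, robust dispersions, a test against a 1.5-fold change, a replicate block and libraries left out. Reads carry no molecular identifiers, so counts cover counting error only.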

Additional observations from a re-analysis of the deposited data

Results flagged for a closer look

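In each group of 6 livers, the gap between the library farthest from the others and its nearest neighbour was divided by the range (Dixon's ratio). Of 22 groups of values, 15 were above its critical value, where about 1.1 would be for normal and independent values. The CPM of these genes were skewed, and many were 0. For Mup10 in iTgMir483 livers, with 5 libraries at 0, the ratio is 1 whatever the last value. The count of 15 is therefore a description only. In controls, replicate 1 stood apart, on the high side, for Mup3 (0.681), Mup7 (0.968), Mup20 (0.945), Mup21 (0.910) and the sum of the 9 genes (0.729), and replicate 5 stood apart for Mup17 (0.783). In iTgMir483 livers, replicate 1 was highest for Mup3 (0.865), Mup7 (0.923), Mup9 (0.837), Mup10 (1), Mup11 (0.755), Mup17 (0.865), Mup20 (0.889) and the sum (0.873). The total count of Control replicate 4 was also apart (0.693), as the most deeply sequenced library. The Mup ratios of 1 library are not independent of each other, because the genes share reads and the sums contain them.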

How the results depend on the processing

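RLE factors, library sizes without Mup genes, no count filter, limma-voom, robust dispersions and the test against a 1.5-fold change each called 7 genes lower. The 89.47% carried by Mup3 stayed within 84.2% to 95.7% over its alternatives, none of which changed how shared reads were counted. DESeq2 called 6 and gave no adjusted p for Mup7, Mup20 and Mup21. With at least 10 counts in every library, 3 of the 9 genes could be tested and 1, Mup3, was called lower, since the other lower genes have iTgMir483 livers under 10 counts. Leaving out 1 library gave 7 to 8 genes lower and 88.2% to 93.9% for Mup3.

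The log2 fold change of Mup21 changed sign in limma-voom (0.38, with an adjusted p of 0.561), without Control replicate 1 (0.86) and without both libraries numbered 1 (0.80), and its share of the fall became -0.197% with group medians, -0.187% without Control replicate 1 and -0.162% without both. For Mup21, leaving out 1 library gave changes from -0.30 to 0.86 and shares from -0.187% to 0.0597%. The labels do not say that equal replicate numbers pair the libraries. Deviations of equal-numbered libraries correlated at 0.44, 0.0419, 0.0376, 0.0339, 0.167 and 0.0527 for replicates 1 to 6. Correlations of libraries with unequal numbers were not computed, so these values do not settle whether the libraries are paired. With the number as a block, 8 genes were lower, Mup20 passing at -1.61 (adjusted p 0.000563), and Mup21 was 0.35 (adjusted p 0.504). Levels of the near-identical copies are limited by shared reads, and counts of 0 to 6 in most iTgMir483 livers limit the size of their folds.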

Other observations

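Another 33 Mup-named genes did not pass the count filter. Mup12, a further central copy, had up to 158 counts in a library and averaged 2.79 CPM in controls and 0.0850 CPM in iTgMir483 livers, and Mup1 averaged 1.42 and 0.0790 CPM. Both were named after their values were seen, as the untested copies with the highest counts, and neither was tested. With every annotated Mup gene included, the summed level was 2330.9 ± 1642.5 CPM (SD, n = 6) in controls and 161.8 ± 173.3 CPM (SD, n = 6) in iTgMir483 livers.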
